A study of Mus musculus with 6 samples.

Results

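Small leucine-rich proteoglycans are secreted proteins built of leucine-rich repeats, most of which carry chondroitin, dermatan or keratan sulfate chains. They bind fibrillar collagen, set the width and spacing of its fibrils, and several of them hold growth factors such as TGF-beta in the matrix. In the lung they come chiefly from fibroblasts, and they are among the best known components of interstitial and scar matrix. The 10 genes described here (Dcn, Bgn, Aspn, Ecm2, Fmod, Lum, Prelp, Omd, Ogn and Podn) were chosen by symbol from the 24408 genes of the table, and every one of them has a row.

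Gene expression was read by 3' SAGE, which counts a short tag near the 3' end of each transcript, in mouse lung fibroblasts of C57BL/6 background. The Untreated library held fibroblasts purified from untreated Col-GFP mice, which carry a collagen-driven green reporter; per the study's design text the cells had been depleted of cells with lineage markers. The Day 2, Day 4 and Day 7 libraries held such Col-GFP donor cells placed into the airways of wild type hosts that had been given bleomycin, a lung-injuring drug, 7 days before, and sorted back as Col-GFP+ cells 2, 4 and 7 days after transfer. The Acta2 low and Acta2 high libraries held transferred donor cells of mice that carry both Col-GFP and Acta2-mKO1, a reporter of smooth muscle actin, divided by low or high Acta2; the day of that sort, the promoter of the collagen reporter, the age of the mice and the number pooled are not known here. All hosts had bleomycin, no library came from cells transferred into uninjured lungs, and the cells of the 3 days had passed a gate on the collagen reporter, so injury, transfer and gate cannot be told apart. Each group is 1 library: nothing below has a replicate check, and each interval is a 95% interval of the tag count alone.

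The libraries held 4448065 to 6175334 tags, so that 1 tag is worth 0.162 to 0.225 CPM (tags scaled to a library sum of 1000000). The 8 fibroblast markers were detected in all 6 libraries, at a sum of 2082 to 13822 CPM. Tcf21 led that sum in Untreated, at 1230 CPM, and was at 21.1 to 97.7 CPM elsewhere. In the other libraries Col1a1 led it, at 7988 CPM in Day 7, so the markers of this list did not move together. The 7 endothelial markers summed to 2.75 to 3.93 CPM and the 8 immune markers to 3.37 to 26.9 CPM, led by Cd74, with Ptprc and Cd68 at 0 in every library. Mesothelial markers (6 genes) summed to 48.8 CPM in Untreated, mostly Upk1b, against 3.08 to 16.3 elsewhere. Epithelial markers (8 genes) summed to 38.6 CPM in Untreated and 42.4 in Day 7, led by Sftpc and Scgb1a1, against 4.59 to 12.6 elsewhere, with Cdh1 at 0 in every library. Smooth muscle and pericyte markers (6 genes) ran from 44.8 CPM in Untreated, mostly Kcnj8, to 217 in Acta2 low, mostly Des.

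In Untreated 49.4% of all tags came from its 10 top genes, 17.4% from Gsn alone, against 24.0% to 38.0% in the other libraries. The median gene differed from Untreated in log2(CPM + 1) by 0.66 (Day 2), 0.31 (Day 4) and 0.39 (Day 7), by -0.35 between Day 4 and Day 2, 0.07 between Day 7 and Day 4, -0.29 between Day 7 and Day 2 and -0.14 between Acta2 high and Acta2 low, the later or high library less the other. Folds below are CPM ratios divided by that shift, called folds over the median gene. A gene was measured in a comparison at a mean of at least 10 CPM over its 2 libraries, and called higher or lower when log2(CPM + 1) differed by at least 2, which is 4-fold. A fall in tags can mean fewer cells that make the transcript or less RNA per cell, which bulk libraries cannot tell apart.

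The enzyme that anchors the tags is not known here. If tags began at the CATG nearest the 3' end, as in most SAGE protocols, the 6 members that the results turn on would be read by the following sequences, taken from GENCODE M21 transcripts of the deposited accessions. They are shown because the tag is what is counted; capitals mark CATG. For each of the 10 members, no other gene of that annotation had the same 21-base tag at that place.
Dcn: CATGacttattatgcaagctg
Lum: CATGttatgattaatagttga
Prelp: CATGttaactctgatacagcg
Fmod: CATGaatggcggccaacctaa
Ogn: CATGactcattttctctgtga
Aspn: CATGtgttttttttaaactga

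In CPM, the summed tags of the 10 genes were lower after transfer and near the Untreated level again in Day 7, chiefly through Dcn. The make-up of the remainder changed. The 10 genes made up 11273 CPM in Untreated (11185 to 11363), 2645 in Day 2, 1384 in Day 4, 9631 in Day 7 (9552 to 9711) and, in the sorts, 1623 (Acta2 low) and 1702 (Acta2 high). Untreated and Day 7 stood far above the other 4 libraries, and Untreated stood above Day 7 beyond the counting intervals. Decorin held most of the sum everywhere, from 92.4% in Day 2 (Wilson interval 92.0 to 92.8) to 68.2% in Acta2 high (67.2 to 69.2). These sums are not divided by the shift of the median gene, which was 1.31-fold in Day 7 against Untreated. How near Day 7 lies to Untreated, and the direction without Dcn, thus depend on scaling. Without Dcn the sum was 1647 CPM in Untreated (1613 to 1681) and 1909 in Day 7 (1874 to 1945), against 202 in Day 2 and 344 in Day 4. Within that remainder Ogn and Prelp led in Untreated, at 7.31% and 4.17% of all tags of the 10 genes, and were at 0.944% and 0.639% in Day 7. Lum and Fmod went the other way, from 0.193% and 0.206% in Untreated to 7.76% (7.54 to 7.98) and 3.41% (3.27 to 3.57) in Day 7.

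**Figure D1:**
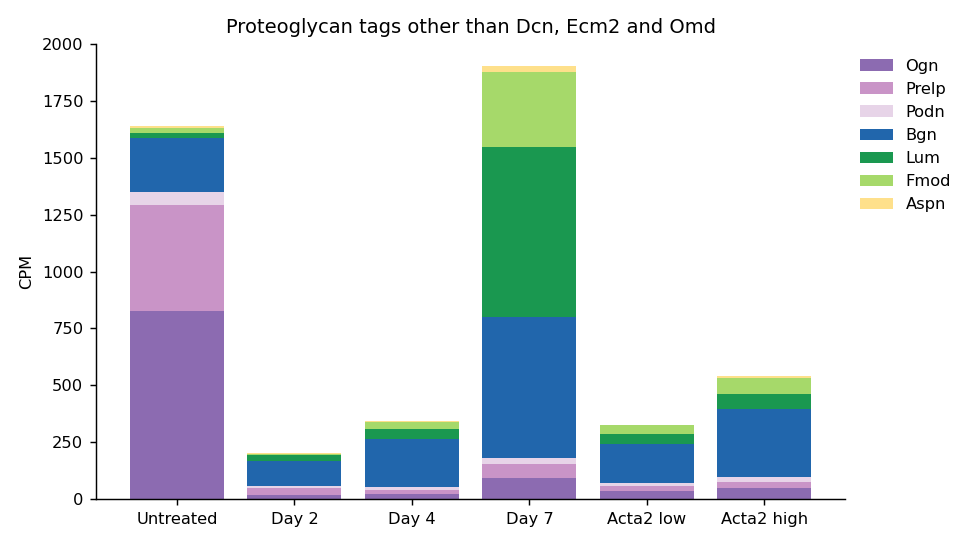
Stacked CPM of 7 members in each of the 6 libraries; Dcn is left out because of its height, and Ecm2 and Omd because they are too low to see, and bars start at 0. The Untreated bar is mostly Ogn and Prelp, while the Day 7 bar, of about the same height, is mostly Lum, Bgn and Fmod.

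Decorin, the class I member that coats collagen fibrils, limits their width and binds TGF-beta, was the most abundant member. Dcn stood at 9626 CPM in Untreated, 2443 in Day 2, 1039 in Day 4, 7723 in Day 7 and, in the sorts, 1296 (Acta2 low) and 1161 (Acta2 high). Untreated and Day 7 were high and the other 4 low, with rank 15 and 20 among all genes in those libraries against 58 to 119. Relative to the median gene Dcn was 6.21-fold lower in Day 2 (6.10 to 6.33), 11.5-fold lower in Day 4 (11.1 to 11.8) and 1.63-fold lower in Day 7 (1.61 to 1.65). Its Day 2 difference of -1.98 log2 stood just short of the call, at -2.64 relative to the median gene. From Day 4 to Day 7 it was 7.09-fold higher (6.88 to 7.31). The sum of the epithelial markers was likewise higher in Untreated and Day 7 than in the other libraries; its part in the Dcn values was not tested.

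Biglycan, the closest relative of decorin and, once released from matrix, a ligand of Toll-like receptors, moved less. Bgn stood at 237 CPM in Untreated, 111 in Day 2, 213 in Day 4, 620.3 in Day 7 and, in the sorts, 172 (Acta2 low) and 301 (Acta2 high). Day 2 was the lowest library and Day 7 the highest. Bgn was 3.37-fold lower than Untreated in Day 2 (3.07 to 3.71), 1.38-fold lower in Day 4 (1.27 to 1.499) and 2.01-fold higher in Day 7 (1.88 to 2.14), none of which was called. Against Day 2 the Day 7 level was 6.85-fold higher (6.31 to 7.45), which was called. The 2 class I genes thus differed in their course, with 2.46 Bgn tags per 100 of Dcn in Untreated (2.32 to 2.60), 20.5 in Day 4 (19.1 to 22.0) and 8.03 in Day 7 (7.76 to 8.31). This ratio is taken within a library and does not depend on scaling.

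Asporin, a class I protein with an aspartate-rich start in place of an attachment site for sugar chains, which competes with decorin for collagen, was low but rose late. Aspn stood at 8.23 CPM in Untreated, 3.56 in Day 2, 4.95 in Day 4, 30.1 in Day 7 and, in the sorts, 2.36 (Acta2 low) and 6.99 (Acta2 high), which is 12 to 176 tags. Day 7 was above all other libraries, whose levels lay under 10 CPM. Aspn passed the filter on low values through Day 7 alone, so the 5.80-fold higher level against Day 4 (3.71 to 9.49) and the 10.3-fold against Day 2 (6.60 to 16.9) are of a gene that could be measured there only because it was high in Day 7. Against Untreated the Day 7 level was 2.80-fold higher (2.01 to 3.98) and not called.

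Ecm2, a leucine-rich repeat protein related to class I, passed the filter in no comparison. It had 24 tags in Untreated (4.39 CPM), 3 in Day 2, 1 in Day 4, 18 in Day 7 (3.08 CPM), 0 in Acta2 low and 4 in Acta2 high. Untreated and Day 7 were again the highest, and the Poisson interval of 0 tags in Acta2 low reaches 0.725 CPM. Against Untreated, Day 2 had a ratio of 0.0702 to the median gene (0.0135 to 0.231) and Day 7 of 0.537 (0.274 to 1.03).

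**Figure D2:**
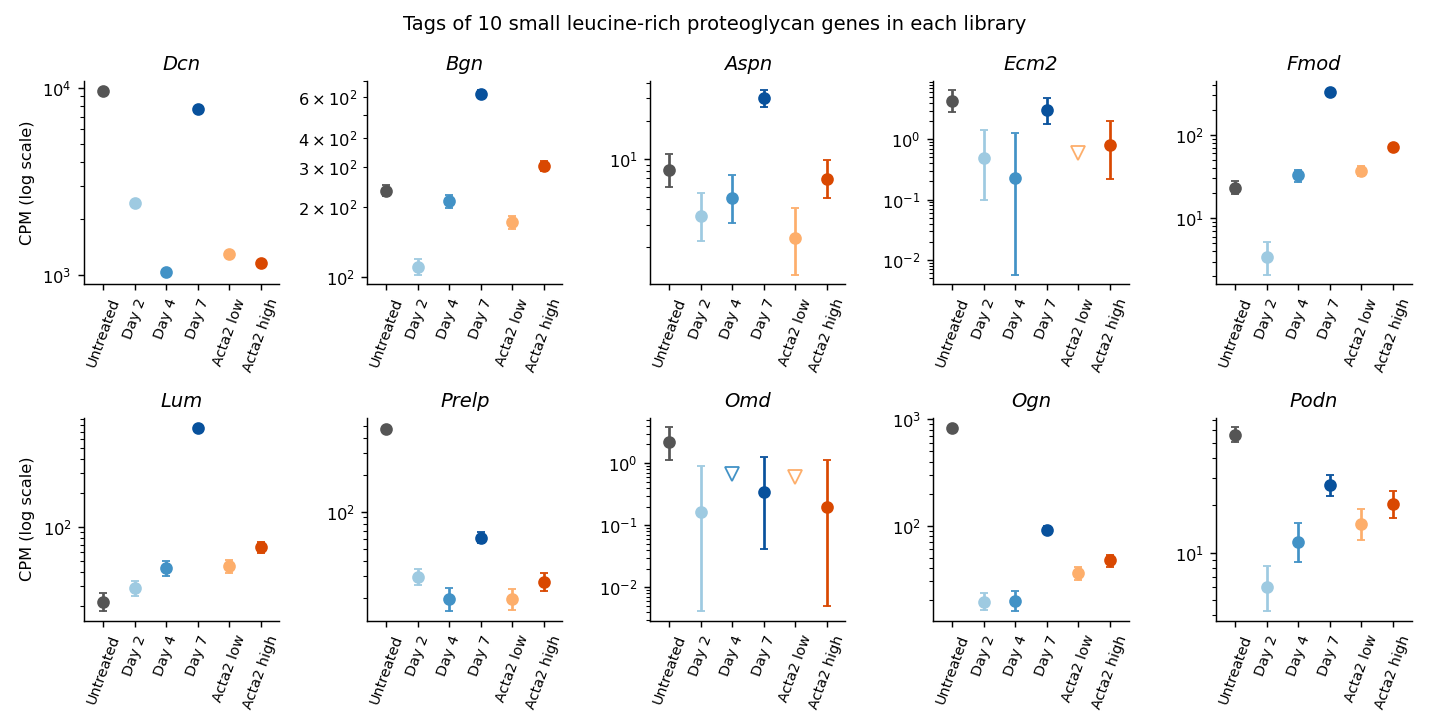
CPM of the 10 members on log axes, 1 panel per gene with its own range, for the 6 libraries; points are single libraries, bars are 95% Poisson intervals of the tag count, and open triangles mark 0 tags at the floor of 3 tags. Day 7 is the highest library for Bgn, Aspn, Fmod and Lum, and Untreated for the other 6 genes.

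Among the class II genes, whose proteins bear keratan sulfate or bind heparin, fibromodulin and lumican were higher and PRELP lower in Day 7 than in Untreated. Lumican, known from the spacing of corneal collagen, stood at 21.8 CPM in Untreated, 28.8 in Day 2, 43.2 in Day 4, 747 in Day 7 and, in the sorts, 45.2 (Acta2 low) and 66.5 (Acta2 high). The Day 7 library stood apart, and Day 4 and Acta2 low did not differ beyond their counting intervals. Lum was 26.3-fold higher in Day 7 than in Untreated (21.9 to 31.8) and 16.5-fold higher than in Day 4 (14.3 to 19.2). For Day 2 the direction depends on scaling: the CPM ratio was 1.33 (1.05 to 1.69), and relative to the median gene it was 0.840 (0.663 to 1.07).

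Fibromodulin, which binds the same collagen site as lumican and steers cross-linking, stood at 23.2 CPM in Untreated, 3.40 in Day 2, 32.6 in Day 4, 329 in Day 7 and, in the sorts, 36.9 (Acta2 low) and 70.9 (Acta2 high). It was lowest in Day 2 and highest in Day 7, and Day 4 and Acta2 low again lay within each other's intervals. Fmod was 10.8-fold lower in Day 2 than in Untreated (6.75 to 18.0), near the median gene in Day 4 at a ratio of 1.13 (0.887 to 1.45), and 10.8-fold higher in Day 7 (9.06 to 13.1). Day 2 held 21 tags and Day 7 held 1924, a fold of 118 over the median gene (77.0 to 191). It was 12.2-fold higher in Day 4 than in Day 2 (7.69 to 20.3), and 9.62-fold higher in Day 7 than in Day 4 (8.12 to 11.5), steps whose intervals overlap.

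PRELP, which binds collagen and, through its proline- and arginine-rich end, heparan sulfate, was below Untreated on all 3 days. Prelp stood at 469.6 CPM in Untreated, 29.5 in Day 2, 19.3 in Day 4, 61.5 in Day 7 and, in the sorts, 19.4 (Acta2 low) and 26.8 (Acta2 high). Untreated was high and all 5 libraries of transferred cells were low. Prelp was 25.1-fold lower in Day 2 (21.6 to 29.4), 30.1-fold lower in Day 4 (24.3 to 37.8) and 9.97-fold lower in Day 7 (8.93 to 11.2), and was 3.03-fold higher in Day 7 than in Day 4 (2.39 to 3.89). Omd, the bone-related osteomodulin, had 12 tags in Untreated and 0 to 2 in each other library and passed no filter. Its ratio to the median gene was 0.0468 in Day 2 (0.00110 to 0.317) and 0.119 in Day 7 (0.0130 to 0.536).

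Osteoglycin, the class III member also called mimecan, which takes part in collagen fibril assembly, was the furthest below Untreated of the measured members on all 3 days. Ogn stood at 825 CPM in Untreated, 19.3 in Day 2, 19.6 in Day 4, 90.9 in Day 7 and, in the sorts, 35.6 (Acta2 low) and 47.1 (Acta2 high). Untreated was high, Day 2 and Day 4 did not differ beyond their intervals, and Day 7 lay between. Ogn was 67.5-fold lower in Day 2 (56.2 to 81.6), 52.2-fold lower in Day 4 (42.3 to 65.4) and 11.9-fold lower in Day 7 (10.8 to 12.99), and 4.43-fold higher in Day 7 than in Day 4 (3.53 to 5.63). Podocan, the class V member and a collagen I binder, stood at 56.5 CPM in Untreated, 5.99 in Day 2, 11.7 in Day 4, 26.8 in Day 7 and, in the sorts, 15.1 (Acta2 low) and 20.4 (Acta2 high). Podn was 14.9-fold lower in Day 2 (10.6 to 21.5), 5.99-fold lower in Day 4 (4.45 to 8.20) and 2.75-fold lower in Day 7 (2.26 to 3.36). The sum of the mesothelial markers was also higher in Untreated than in all other libraries, as Ogn, Prelp and Podn were. That sum was mostly Upk1b in Untreated, and Krt19, another mesothelial marker, was higher in Acta2 low than in Untreated. The part of these markers in the values of Ogn, Prelp and Podn was not tested.

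**Figure D3:**
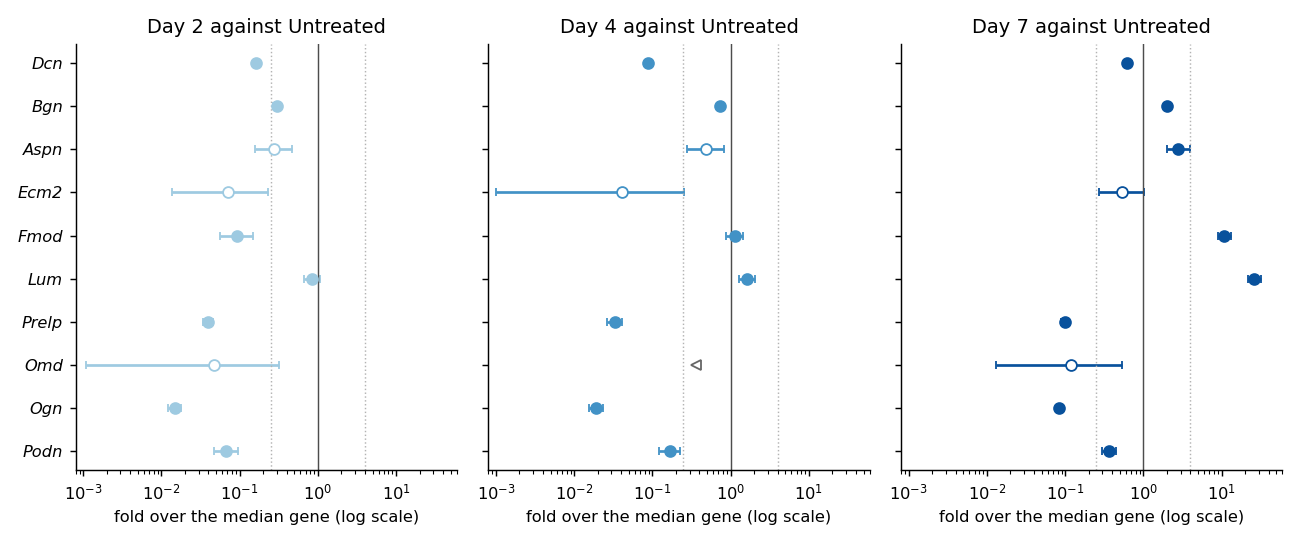
Fold of each member over the median gene, on a log axis, for Day 2, Day 4 and Day 7 against Untreated, with 95% intervals of the tag counts; open circles are genes below the filter, the open triangle is the upper limit for Omd at 0 tags, and dotted lines mark 4-fold. No member lies past 4-fold higher in Day 2 or Day 4, and Fmod and Lum lie past it in Day 7 while Prelp and Ogn stay below.

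The counts of called members put these values beside all genes. The members were chosen with earlier results of these data known, so the shares over all genes describe and do not test. In Day 2 against Untreated, 7 of 10 members were measured, 4 were lower (Fmod, Prelp, Ogn and Podn) and 0 higher, where 4.7% of 4256 measured genes were lower and 13.6% higher; relative to the median gene 5 members were lower, Dcn with them, against 7.42% of all genes lower and 7.03% higher. In Day 4, 4 of 7 measured members were lower (Dcn, Prelp, Ogn and Podn) and 0 higher, where 5.11% of 3933 genes were lower and 9.99% higher, or 6.79% and 7.70% relative to the median gene. In Day 7, 8 members were measured, with 2 higher (Fmod and Lum), 2 lower (Prelp and Ogn) and 4 within 4-fold, where 4.95% of 4017 genes were higher and 3.31% lower, or 3.39% and 4.18% relative to the median gene. The median of the measured members lay 3.12 log2 below that of all measured genes in Day 2, 2.49 below in Day 4 and 0.15 above in Day 7. Fmod and Podn passed the filter in Day 2 through the Untreated library alone, and the members below the filter are in neither count nor median. Aspn passed it in Day 7 through Day 7 alone, where it is high, and is in that median only. Without Aspn the middle member in Day 7 would be Dcn, at -0.70 log2 relative to the median gene. The side on which the Day 7 median lay thus depends on Aspn. The 3 comparisons share the Untreated library.

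In CPM the members went both ways from Day 2 to Day 4, with 6 of 10 higher and 4 lower. From Day 4 to Day 7 all 10 were higher. Of the 4, Ecm2 (1 tag against 3) and Omd (0 against 1) lay above the median gene, by 0.07 and 0.13 log2. The share of all genes going each way at any size was not counted. In Day 4 against Day 2, 6 members were measured and 1 was higher (Fmod), where 0.305% of 4259 genes were higher and 0.258% lower, or 0.493% and 0.117% relative to the median gene. Fmod passed the filter there through Day 4 alone, where it is high. Bgn was 2.45-fold higher (2.22 to 2.71), Lum 1.91-fold (1.55 to 2.35) and Dcn 1.85-fold lower (1.79 to 1.91) in that step, all within 4-fold. In Day 7 against Day 4, 5 of 8 measured members were higher (Dcn, Aspn, Fmod, Lum and Ogn) and 0 lower, where 2.23% of 4132 genes were higher and the same 2.23% lower. Relative to the median gene these shares were 2.06% higher and 2.4% lower. Aspn passed the filter in that step through Day 7 alone, where it is high. The members' median was above that of all genes by 2.21 log2, and Omd had only 2 tags against 0. In Day 7 against Day 2, 5 of 8 were higher (Bgn, Aspn, Fmod, Lum and Ogn) and 0 lower, where 3.29% of 4438 genes were higher and 4.57% lower, or 4.64% and 2.84% relative to the median gene. Aspn, Fmod and Podn passed the filter there through Day 7 alone, where they are high. Podn, at a difference of 1.99 log2, was just short of the call there and is past it relative to the median gene, at 2.28.

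**Figure D4:**
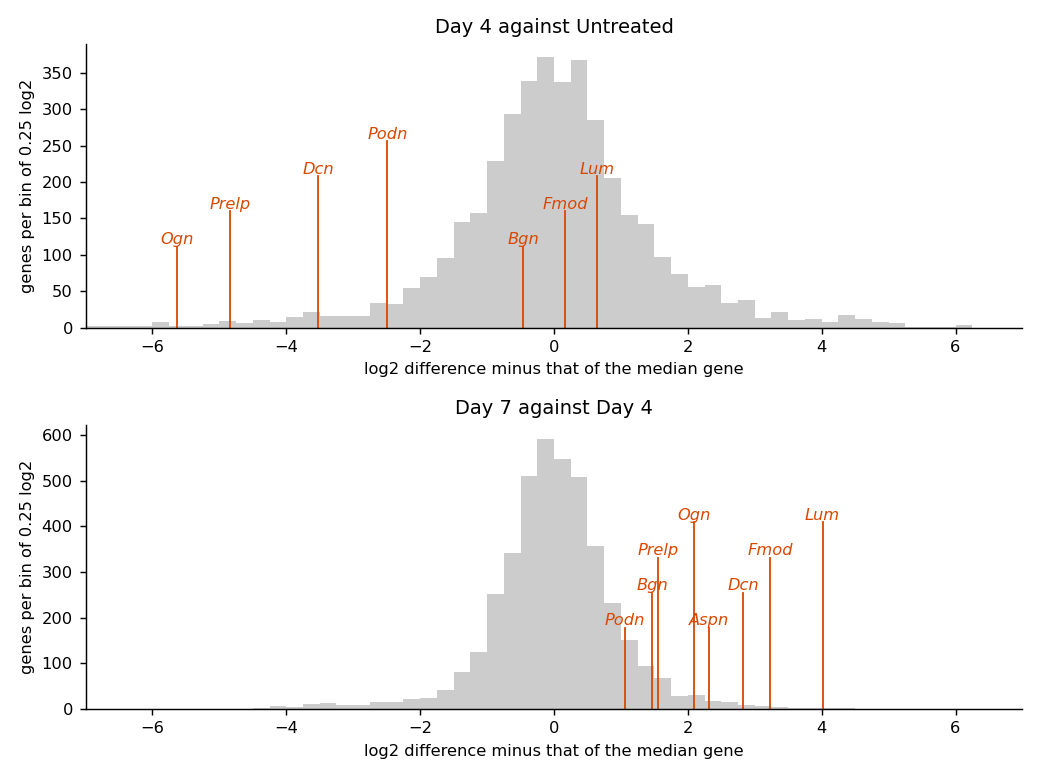
Histograms of the log2 difference of all measured genes, less that of the median gene, for Day 4 against Untreated and Day 7 against Day 4, with the measured members as labelled lines whose heights carry no value. In the first, Ogn, Prelp, Dcn and Podn lie in the lower tail; in the second, all 8 measured members lie right of 1.

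In the sorts, the folds of the members were small and mostly in 1 direction. Acta2 itself stood at 451 CPM in Acta2 high and 277 in Acta2 low, a fold of only 1.80 over the median gene (1.68 to 1.92), although the cells had been divided by its reporter. None of 7 measured members was called, where 0% of 3998 measured genes were higher and 0.15% lower. Of the measured genes, 92.8% (for Ogn) to 99.3% (for Fmod) had a lower difference than each measured member other than Dcn. For Dcn that share was 48.0%, and for Acta2 98.0%. Fmod was 2.12-fold higher in Acta2 high (1.77 to 2.54), Bgn 1.93-fold (1.78 to 2.10) and Lum 1.63-fold (1.37 to 1.93). Prelp was 1.52-fold higher (1.16 to 1.99), Ogn 1.46-fold (1.20 to 1.79) and Podn 1.49-fold (1.095 to 2.025). The CPM ratio of Podn, not divided by the shift, was 1.35 with an interval that held 1 (0.992 to 1.83). The interval of Dcn held the median gene, with a fold of 0.989 (0.954 to 1.02). Col1a1, a collagen I chain, was 2.05-fold higher (2.01 to 2.08). Aspn had 35 tags against 12, a ratio of 3.27 (1.66 to 6.93) below the filter. By difference in CPM, both sorts were nearer to Day 4 than to Day 7 in Dcn, Bgn, Aspn, Fmod, Lum, Prelp and Ogn, and Podn in Acta2 high was nearer to Day 7; by ratio, Ogn in Acta2 high was nearer to Day 7 too.

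Tags of 1 gene per tag of another in the same library leave scaling aside. SAGE gives 1 tag per transcript whatever its length, but how well each tag is recovered was not measured, so these ratios are read across libraries only. Lum had 2.64 tags per 100 of Ogn in Untreated (2.18 to 3.17), 149.6 in Day 2 (118 to 190.3), 221 in Day 4 (170.4 to 288) and 822 in Day 7 (751 to 901). The ratio was higher in each of the 3 days than in Untreated, and in the sorts it was 127 in Acta2 low (104 to 155) and 141 in Acta2 high (119 to 167), below Day 4. Fmod had 4.94 tags per 100 of Prelp in Untreated (4.10 to 5.91), 11.5 in Day 2 (6.97 to 18.2), 169 in Day 4 (128 to 223) and 534 in Day 7 (477 to 599.8). Both sorts lay between Day 2 and Day 7 in the ratio of Fmod to Prelp, at 189.9 in Acta2 low (148 to 245) and 265 in Acta2 high (217 to 326).

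Relative to collagen I the 6 members compared were lower in every library of transferred cells than in Untreated, except Lum in Day 7. Col1a1 itself stood at 310.2 CPM in Untreated, 777 in Day 2, 3560 in Day 4, 7988 in Day 7 and, in the sorts, 4293 (Acta2 low) and 7953 (Acta2 high), a fold over the median gene of 19.7 in Day 7 against Untreated (18.8 to 20.7). The ratios thus hold the rise of Col1a1 as well as the course of each member. Dcn had 31.03 tags per Col1a1 tag in Untreated (29.6 to 32.6), 3.15 in Day 2 (3.05 to 3.25), 0.292 in Day 4 (0.283 to 0.302) and 0.967 in Day 7 (0.954 to 0.979). It stood at 0.302 in Acta2 low (0.294 to 0.311) and 0.146 in Acta2 high (0.142 to 0.150), the lowest of the 6. Lum had 7.01 tags per 100 of Col1a1 in Untreated (5.77 to 8.45), 1.21 in Day 4 (1.05 to 1.40) and 9.35 in Day 7 (9.07 to 9.65). Bgn had 76.3 per 100 in Untreated (70.9 to 82.0), 5.98 in Day 4 and 7.77 in Day 7, and Fmod had 7.48 (6.20 to 8.97), 0.438 in Day 2 and 4.12 in Day 7 (3.93 to 4.31), although both had a higher CPM in Day 7 than in Untreated. Ogn and Prelp went from 266 and 151 per 100 in Untreated to 1.14 and 0.770 in Day 7.

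**Figure D5:**
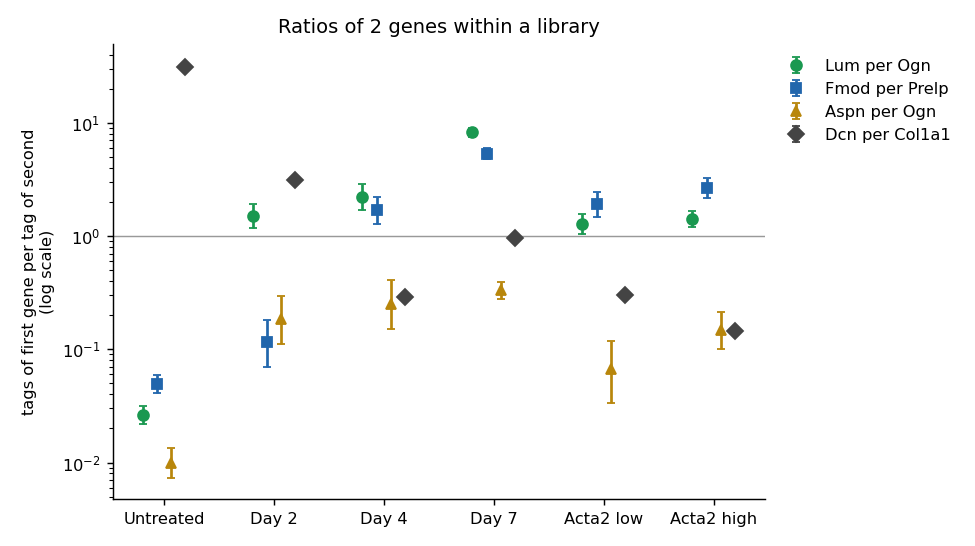
Tags of the first gene per tag of the second within each library, on a log axis, with exact 95% intervals; the line marks 1. Lum per Ogn and Fmod per Prelp climb from under 0.1 in Untreated to above 5 in Day 7, while Dcn per Col1a1 drops from 31.03 to under 1 in Day 4 and Day 7; Aspn per Ogn is also shown.

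Some members that lie near each other in the genome differed in direction in Day 7 against Untreated, but not from Day 4 to Day 7. In the RefSeq gene order (GRCm38.p6, a later build than the mm9 of the deposited values) Dcn and Lum are neighbours on chromosome 10, Prelp and Fmod on chromosome 1, and Ecm2, Aspn, Omd and Ogn stand in a row on chromosome 13 inside the span of Cenpp, a centromere gene on the other strand. Bgn is on chromosome X and Podn on chromosome 4, each away from the rest. In Day 7 against Untreated Lum was 26.3-fold higher beside Dcn at 1.63-fold lower, and Fmod 10.8-fold higher beside Prelp at 9.97-fold lower. Aspn was 2.80-fold higher in the same row as Ogn at 11.9-fold lower. Dcn and Aspn were not called. Ecm2 and Omd, the rest of that row, were below the filter. Relative to the median gene Ecm2 was at 0.537 (0.274 to 1.03) and Omd at 0.119 (0.0130 to 0.536), on the side of Ogn. In Day 7 against Day 4 both genes of each pair were higher, and in Day 2 against Untreated Fmod and Prelp were both called lower. Aspn had 0.998 tags per 100 of Ogn in Untreated (0.727 to 1.34) and 33.1 in Day 7 (27.7 to 39.3). Cenpp had 0 to 2 tags in each library, and the use of strand in counting is not known here. Kera and Epyc, which follow Lum on chromosome 10, had no tag in any library, and Optc, next to Prelp, had 0 to 4.

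The 250 bases before the RefSeq start (GRCm38.p6) are shown for 2 pairs of genes that lie near each other and differed in direction in Day 7 against Untreated, so that their letters can be compared. A promoter entry was matched by symbol for 8 of the 10 members; Dcn and Lum had none. Capitals mark matches, on either strand, to TATAAA (the TATA box), TGANTCA (the AP-1 site), GGGCGG (the GC box of Sp1), GGAATG (the TEAD site) or CAGAC (a core of SMAD sites).
Prelp (chr1:133921402-133921651, minus strand): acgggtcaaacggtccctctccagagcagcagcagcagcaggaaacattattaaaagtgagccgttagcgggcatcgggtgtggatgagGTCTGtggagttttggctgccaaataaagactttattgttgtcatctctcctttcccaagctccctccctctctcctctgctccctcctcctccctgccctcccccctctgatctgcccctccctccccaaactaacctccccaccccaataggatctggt
Fmod (chr1:134037004-134037253, plus strand): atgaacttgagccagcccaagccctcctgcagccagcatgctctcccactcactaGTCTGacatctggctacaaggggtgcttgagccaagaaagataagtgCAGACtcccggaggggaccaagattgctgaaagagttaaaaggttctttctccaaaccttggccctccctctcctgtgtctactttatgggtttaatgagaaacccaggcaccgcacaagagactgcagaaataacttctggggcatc
Aspn (chr13:49544193-49544442, plus strand): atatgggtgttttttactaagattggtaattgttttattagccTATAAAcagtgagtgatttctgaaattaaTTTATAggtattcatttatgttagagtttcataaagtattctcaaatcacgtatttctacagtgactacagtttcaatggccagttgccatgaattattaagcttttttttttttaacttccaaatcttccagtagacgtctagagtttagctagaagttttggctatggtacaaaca
Ogn (chr13:49607765-49608014, plus strand): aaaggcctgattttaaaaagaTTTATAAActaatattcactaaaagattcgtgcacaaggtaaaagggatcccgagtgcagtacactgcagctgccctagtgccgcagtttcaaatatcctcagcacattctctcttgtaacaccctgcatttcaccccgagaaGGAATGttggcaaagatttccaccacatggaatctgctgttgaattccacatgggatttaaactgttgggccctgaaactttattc

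Of all 32851 promoters of that length, 12.4% held TATAAA, 6.75% TGANTCA, 32.7% GGGCGG, 12.6% GGAATG and 42.2% CAGAC. Fmod held CAGAC at 2 places and Prelp at 1. Aspn held TATAAA at 2 places, and Ogn held it in 2 overlapping matches, one on each strand, with GGAATG at 1 place. None of the 8 members held TGANTCA in this window, and GGGCGG was in Bgn, Ecm2 and 1 of the 2 Podn promoters. These are letters in a window and describe no binding.

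The rest of the pathway was described through lists of enzymes, proteases, partners and other proteoglycans. The list counts are to be read beside the shares over all measured genes against Untreated. These were 13.6% higher and 4.7% lower in Day 2, 9.99% and 5.11% in Day 4, and 4.95% and 3.31% in Day 7. Of 8 further family members only Tsku, a class IV gene, was measured in Day 2 and Day 4 and none in Day 7 against Untreated. Tsku stood at 6.76 CPM in Untreated, 17.2 in Day 2, 16.6 in Day 4 and 8.88 in Day 7, and was not called. Of 16 genes of chondroitin and dermatan sulfate synthesis 5 were measured against Untreated, and 1 was called, higher, on each day. It was Csgalnact1, which starts chondroitin chains, at 7.68 CPM in Untreated, 64.0 in Day 2, 41.1 in Day 4 and 48.7 in Day 7, a rise of 5.28-fold (3.84 to 7.45), 4.32-fold (3.08 to 6.20) and 4.86-fold (3.50 to 6.88). Its Day 4 call is lost when log2(CPM + 1) is taken relative to the median gene. Csgalnact1 was under 10 CPM in Untreated and passed the filter through the later libraries alone, where it is high. Of 6 genes of the linker that joins chains to proteins 1 was measured and not called, and of 8 keratan sulfate genes 2 to 4 were measured, with only B4galt4 called, lower in Day 2 at 3.56 against 17.9 CPM. B4galt4 passed the filter there through Untreated alone, where it is high. Most genes that build the chains thus lay below the filter.

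Of 10 proteases that process or cut these proteins, 5 were measured against Untreated. Bmp1, which trims procollagen and probiglycan, stood at 9.69 CPM in Untreated, 42.1 in Day 2, 69.2 in Day 4 and 97.4 in Day 7, called higher on all 3 days. Its Day 2 call is lost relative to the median gene, with a fold of 2.76 (2.05 to 3.78). Bmp1 was under 10 CPM in Untreated and passed the filter through the later libraries alone, where it is high. Mmp14, a membrane-bound collagenase, was 16.0-fold higher in Day 7 (14.6 to 17.5), Htra1, a serine protease of matrix, 7.75-fold higher (6.34 to 9.56) and Mmp3, stromelysin, 20.0-fold lower (17.5 to 22.9). Mmp2, a gelatinase, stood at 363 CPM in Untreated, 67.2 in Day 2, 116 in Day 4 and 735 in Day 7. In all, 1 protease was higher and 1 lower in Day 2, 2 were higher in Day 4, and 3 were higher and 1 lower in Day 7; relative to the median gene Mmp3 was also lower in Day 4.

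Of 11 collagens and lysyl oxidase, 8 or 9 were measured against Untreated, with 0 called in Day 2, 5 higher in Day 4 and 5 higher in Day 7, and none lower. Relative to the median gene 4 were higher in Day 4, without Col1a2, and 3 in Day 7, without Col5a1 and Col5a2. The list median lay 0.32 log2 above that of all genes in Day 2, 2.02 above in Day 4 and 1.94 above in Day 7, where that of the proteoglycans lay below in Day 2 and Day 4. Of 11 growth factors and receptors that these proteins bind, 4 were measured and 1 called on each day, Bmp4 (with Lrp1 also lower in Day 4 relative to the median gene), which was 13.8-fold lower in Day 2 (10.3 to 18.7), 13.5-fold in Day 4 (9.31 to 20.3) and 5.68-fold in Day 7 (4.54 to 7.14). Tgfb3 was called higher in Day 7 against Day 2, at 63.6 against 7.61 CPM, with 19.6 CPM in Untreated. It was the 1 called of 6 measured genes of that list in that comparison, where 3.29% of 4438 genes were higher, or 4.64% relative to the median gene. Of 18 other proteoglycans 5 or 6 were measured against Untreated, with 1 higher and 1 lower in Day 2 and in Day 4 and 3 higher in Day 7, or 2 higher and 1 lower in Day 7 relative to the median gene. Sdc1, the cell surface heparan sulfate proteoglycan syndecan 1, was 25.7-fold higher in Day 2 (12.9 to 60.0) on 8 tags in Untreated, and Gpc3, a glypican, was 19.0-fold lower (16.3 to 22.2). Acan, aggrecan of cartilage, was at 1 tag in Untreated and 617 in Day 7. Against Untreated, Sdc1 and Acan passed the filter through the later library alone, and Bmp4 in Day 2 and Day 4 through Untreated alone. Tgfb3 in Day 7 against Day 2 passed it through Day 7 alone.

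The genes whose log2(CPM + 1) over the 6 libraries was most like that of each member with a mean of at least 50 CPM were taken from 1413 genes; the values are Pearson's r over 6 points that share the same libraries and describe likeness only. For Dcn they were Cyr61 (r = 0.988), a matricellular early response gene, Ier2 (0.985) and Son (0.971). For Fmod they were Itgb5 (0.992), C1qtnf3 (0.992) and Pdgfrl (0.990), of which C1qtnf3 had the wider range, from 0.486 CPM in Day 2 to 268 in Day 7. For Prelp they were Adh1 (0.998), Tcf21 (0.996), a transcription factor of lung fibroblasts, and Mettl7a1 (0.995), and for Ogn they were Gpm6b (0.999), Gpx3 (0.995) and Sept4 (0.989). For Bgn they were Ndufv3 (0.994), Cdh11 (0.989) and LOC100503946 (0.983), and for Lum Oaz2-ps (0.977), Arl2 (0.976) and Rilpl2 (0.969). The matches of Prelp and Ogn rest largely on the high Untreated library. Adh1 was at 1535 CPM there against 60.7 to 216 elsewhere, and Gpx3 at 79089 against 2506 to 8444. Ndufv3, matched to Bgn, ranged only from 69.8 to 129.5 CPM. The matches of Lum rest on Day 7 and on small changes, such as Arl2 at 93.6 CPM in Day 7 against 58.5 in Untreated, and Oaz2-ps is a pseudogene that may share tags with its parent gene.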

How the data were processed

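Tags were counted by 3' SAGE from cDNA amplified over 18 PCR cycles, per the labels' protocols; BWA 0.6.2 and mm9 are named in the submitters' processing notes. How a tag was given to a gene, and on which strand, is not given in these sources. The authors deposited 1 table of CPM values, each library summing to 1000000 over 24408 genes. The deposited CPM step in equal units, and 100% were whole multiples of their library's smallest value within 0.001, which gave the tags. A symbol turned into a date was mended in 25 rows from its transcript title. With 1 library per group no test across samples was possible and no p-value is given. The members and lists were chosen with earlier results of these data known. Measured genes averaged at least 10 CPM in the pair of libraries compared, and the size rule was a difference of 2 in log2(CPM + 1). Ratios carry exact conditional 95% intervals, levels Poisson intervals and shares Wilson intervals; PCR copies carry no molecular identifiers, so all cover counting error only. A gene at 0 tags has a floor of 3 tags. Named genes were all members, Col1a1 and Acta2, up to 3 called genes per list and comparison, and the 3 most alike genes of each member with a mean of at least 50 CPM; Cenpp, Tsku, marker genes and the neighbours were named after their values were seen. Sequences come from RefSeq (GRCm38.p6) and GENCODE M21. The alternatives were pseudocounts of 5 and 0.1 CPM, no filter, median-ratio scaling, CPM without the 100 most abundant genes, the size rule joined to an exact binomial test (two-sided, Benjamini-Hochberg, 0.05), and a 2-fold rule; differences relative to the median gene and a filter of 10 CPM in either library were added after seeing the data. Python 3.11.15 with numpy 2.4.6, scipy 1.17.1 and pandas 2.3.3 was used.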

Additional observations from a re-analysis of the deposited data

Results flagged for a closer look

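Fmod was past 4-fold lower in Day 2 and past 4-fold higher in Day 7 against the same Untreated library, with log2 differences of -2.46 and 3.77. The difference between the 2 time points was not tested across samples, since each is 1 library; by tags it was 21 against 1924. Fmod in Untreated rests on 127 tags, and its Day 2 call is lost with a pseudocount of 5 CPM.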

How the results depend on the processing

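No paired analysis was possible because each group has 1 library. Of 126 counts of called members under the alternatives, 121 lay within 1.5 times the reported count. These include counts of 0 that stayed at 0, and which genes were called was not compared. In Day 2 against Untreated, 6 lower members under the 2-fold rule in place of 4 are within that limit. With the 2-fold rule 4 members were higher in Day 7 against Untreated in place of 2 (Bgn and Aspn added), 1 was lower in Day 4 against Day 2 in place of 0 (Dcn), and 8 were higher in Day 7 against Day 4 and 8 against Day 2 in place of 5 each. With a pseudocount of 5 CPM Fmod in Day 2 and Podn in Day 4 against Untreated and Ogn in Day 7 against Day 2 were no longer called, and 3 members (Dcn, Fmod and Lum) were higher in Day 7 against Day 4 in place of 5. No called difference of a member changed sign under the other pseudocounts and scalings, nor relative to the median gene. Lum in Day 2 against Untreated, not called, was 0.39 log2 in CPM, -0.09 with median-ratio scaling, -0.20 without the 100 most abundant genes and -0.27 relative to the median gene. Ecm2 and Omd in Day 4 against Day 2, below the filter, turned from -0.28 and -0.22 log2 in CPM to 0.07 and 0.13 relative to the median gene. Adding the binomial test of the tags changed no count. Ecm2 and Omd, with 0 to 24 tags, are limited by depth: a level of 10 CPM in the Day 4 library has an interval of 7.19 to 13.3 CPM.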
